A study of Mus musculus with 3143 samples.

Results

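The cells described are natural killer (NK) cells among single cells of the glomerular fraction of mouse kidney. A cell was counted as NK when its reads of Ncr1, Klrb1c and Klre1 summed to at least 100 CPM (counts per 1000000 reads of that cell) and its reads of the CD3 genes Cd3e, Cd3d and Cd3g summed to under 150 CPM. This gate chose 91 of 3143 cells, 59 of 1798 in the group labelled IgAN and 32 of 1345 in the group labelled Control. The gate used measured values, so the levels of those 6 genes in the members describe the gate and are not results. All cells came from adult C57BL/6 mice. IgAN stands for IgA nephropathy, in which IgA collects in the glomerular mesangium; the labels do not say how it was brought about or what the Control mice received. The glomeruli of both groups were digested with collagenase IV, pronase E and DNase I, stained with a dye that marks viable cells, and the dye-positive cells were sorted 1 to a well for Smart-seq2, a method that makes cDNA of whole polyadenylated transcripts. The labels name no animals, so each group is 1 sample with no replicate, and no test between the groups was possible. IgAN cells lay on plates 313, 315, 316, 318, 322 and 325 and Control cells on plates 314, 317, 321 and 326. A plate effect and a group effect therefore cannot be told apart, and values are given by plate since no replicate error exists.

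NK cells are innate lymphocytes that kill stressed or infected cells without a rearranged antigen receptor. Activating receptors, such as NKp46 (encoded by Ncr1) and NKG2D (Klrk1), signal through adaptors with tyrosine motifs, while inhibitory receptors of the Ly49 family and the pair of NKG2A (Klrc1) and CD94 (Klrd1) recognise MHC class I on healthy cells and restrain killing. Killing is carried out by perforin, which opens the target membrane, and by granzymes, proteases that pass through it, and NK cells also release interferon gamma and the chemokines CCL3, CCL4, CCL5 and XCL1.

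Promoters of 4 genes of the NK programme are shown to give the sequence behind the levels that follow: Ncr1, a gate gene (chr7:4337465-4337764, plus strand), Prf1, which encodes perforin (chr10:61297586-61297885, plus strand), and Klrb1a and Ccl3, which were among the genes with the largest excess over T cells (chr6:128622885-128623184, minus strand, and chr11:83649329-83649628, minus strand). Each runs from 250 bases before to 50 bases after the start of the gene in RefSeq on GRCm38.p6, 5′ to 3′ on the strand of the gene. Capitals mark the core letters of the Runx motif (ACCACA, or TGTGGT on the other strand) and of the Ets motif (ACTTCC, or GGAAGT), families to which the NK factors Runx3 and Ets1 belong.
Ncr1: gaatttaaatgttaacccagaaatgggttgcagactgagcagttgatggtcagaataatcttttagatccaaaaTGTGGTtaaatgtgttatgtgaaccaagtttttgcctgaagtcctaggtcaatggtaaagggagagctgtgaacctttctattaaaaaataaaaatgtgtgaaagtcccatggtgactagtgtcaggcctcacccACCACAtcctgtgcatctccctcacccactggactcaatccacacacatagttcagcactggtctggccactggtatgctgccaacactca
Prf1: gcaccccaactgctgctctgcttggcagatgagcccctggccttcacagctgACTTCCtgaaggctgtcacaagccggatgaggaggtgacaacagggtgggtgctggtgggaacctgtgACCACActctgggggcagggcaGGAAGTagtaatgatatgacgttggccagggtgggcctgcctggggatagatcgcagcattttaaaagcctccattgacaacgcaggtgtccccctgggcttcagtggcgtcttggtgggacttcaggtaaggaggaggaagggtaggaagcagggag
Klrb1a: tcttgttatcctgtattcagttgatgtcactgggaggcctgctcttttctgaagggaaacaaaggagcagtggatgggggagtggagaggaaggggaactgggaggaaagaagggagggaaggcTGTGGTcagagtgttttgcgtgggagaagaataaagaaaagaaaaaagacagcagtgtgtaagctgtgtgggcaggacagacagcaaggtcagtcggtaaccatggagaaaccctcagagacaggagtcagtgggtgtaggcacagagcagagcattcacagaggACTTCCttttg
Ccl3: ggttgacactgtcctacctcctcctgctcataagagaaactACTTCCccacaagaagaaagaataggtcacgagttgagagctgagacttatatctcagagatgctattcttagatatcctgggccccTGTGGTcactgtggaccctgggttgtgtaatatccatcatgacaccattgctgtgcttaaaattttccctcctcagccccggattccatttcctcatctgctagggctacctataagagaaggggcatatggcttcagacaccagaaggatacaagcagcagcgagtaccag
The Ncr1 promoter held 2 Runx matches and no Ets match, that of Prf1 held 1 Runx and 2 Ets matches, and those of Klrb1a and Ccl3 held 1 of each. Of the 14 genes named below as highest in NK against T cells, 10 had a promoter in the RefSeq table. The Runx letters were in 4 of the 10 and in 16.9% of all 27025 promoters, and the Ets letters were in 6 of the 10 and in 24.1% of all promoters. The T-box letters, read by T-bet and Eomes, are TCACAC, which is GTGTGA on the other strand, and were in 1 of the 10, Serpinb9b, and in 14.4% of all promoters. A match is only a match of letters, and none shows that a factor binds there.

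The gate drew a clear line for most cells. The sum of the 3 gate genes had a median of 3495 CPM in the members and a maximum of 10363, while the members nearest the limit had 107, 108 and 124 CPM and the nearest cells below it 79.9, 79.7 and 76.4 CPM. There were 7 members between 100 and 200 CPM and 14 cells between 50 and 100 CPM. On the CD3 side 61 members had no read, the highest members had 137 and 81.6 CPM, and the nearest cells above the limit had 152 and 192 CPM. The label was checked against Gzma, Prf1, Gzmb and Tbx21, the NK markers that the gate did not use, and 85 of 91 members had a read of at least 3 of these 4. Members held 55446 to 737117 reads, with a median of 205404 (193214 in IgAN and 225766 in Control), and a median of 4597 genes (4719 and 4249). The 29 cells past both limits, 13 in IgAN and 16 in Control, are not members.

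A group of members also carried RNA of other kidney cells. At least 500 CPM of the endothelial genes Pecam1, Cdh5, Kdr and Emcn were found in 23 members, of which 22 were among the 59 of IgAN and 1 among the 32 of Control. Of the 22, 11 were on plate 315. Endothelial cells of the same plates had a median of 7210 CPM of these 4 genes, IgAN members 349 and Control members 102. The 23 members had a median gate sum of 724 CPM against 3806 in the other 68, and a median sum of the granule genes Gzma, Prf1, Gzmb and Nkg7 of 5812 against 11139 CPM. They held more genes, a median of 5702 against 4386, at 185664 against 212125 reads. Of these 23 members, 22 had a read of Ptprc, the CD45 gene of leukocytes, but so had 2479 of all 3143 cells. Of all members, 3 held 14037 to 24587 CPM of 12 macrophage and dendritic genes, 2 in IgAN, of which 1 is also among the 23, and 1 in Control. These 3 had a gate sum of 108 to 153 CPM, at most 7.08 CPM of Ncr1 and a granule sum of only 2.83 to 70.0 CPM. In 1 Control member on plate 317, 8 podocyte genes reached 25525 CPM. No doublet caller was run and these wells were kept, and the main results between groups are given with and without the 23 members, a limit chosen after the data were seen.

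**Figure D1:**
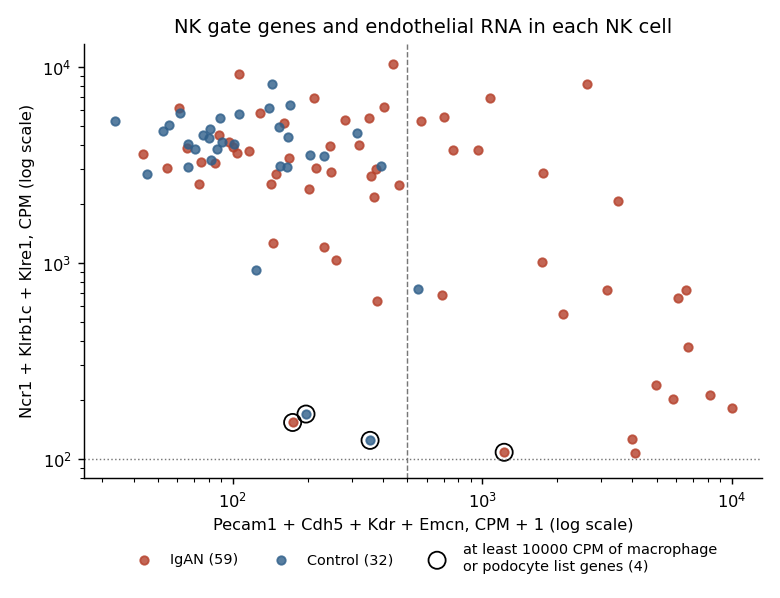
Each point is 1 of the 91 NK cells, placed by its summed CPM of 4 endothelial genes plus 1 (x, log scale) and of the 3 gate genes (y, log scale), red for IgAN and blue for Control. The dashed line marks 500 CPM, past which lie 22 IgAN and 1 Control cells, the dotted line marks the gate at 100 CPM, and circles mark the 4 cells with at least 10000 CPM of macrophage or podocyte genes.

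NK cells made up 3.28% of IgAN cells (59 of 1798, 95% interval 2.51 to 4.21) and 2.38% of Control cells (32 of 1345, 1.63 to 3.34). The intervals are exact binomial and cover counting error only. Across the 6 IgAN plates the share was lowest at 2.65% on plate 322 and highest at 5.80% on plate 315, and the other 4 plates lay between 2.66 and 2.99%. The Control plates 314, 317, 321 and 326 had 2.58, 1.80, 1.34 and 3.56%. The groups overlapped by plate. Without plate 315 the IgAN share was 2.79%, and without the 23 members with endothelial RNA it was 2.06% against 2.30% in Control. Of cells with a Ptprc read, NK cells were 4.15% in IgAN (57 of 1373) and 2.89% in Control (32 of 1106). Such a read was found in most cells of both groups, so this base is not a count of leukocytes.

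Pooled over plates, the NK cells took a larger part of the NK and T cells together in IgAN. T cells, defined by at least 150 CPM of the CD3 genes and a gate sum under 100 CPM, numbered 33 in IgAN (1.84%) and 87 in Control (6.47%). NK cells were 59 of 92 such lymphocytes in IgAN (64.1%, 53.5 to 73.9) and 32 of 119 in Control (26.9%, 19.2 to 35.8). The T cell share ranged from 0.888 to 4.17% over IgAN plates and from 2.70 to 12.1% over Control plates, so the plates overlapped for T cells as well. B cells (at least 100 CPM of Cd79a and Cd79b) were 54 in IgAN, 3.00%, and 147 in Control, 10.9%. Digestion, staining and sorting of each plate come before these shares, and their part in the shares was not tested.

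**Figure D2:**
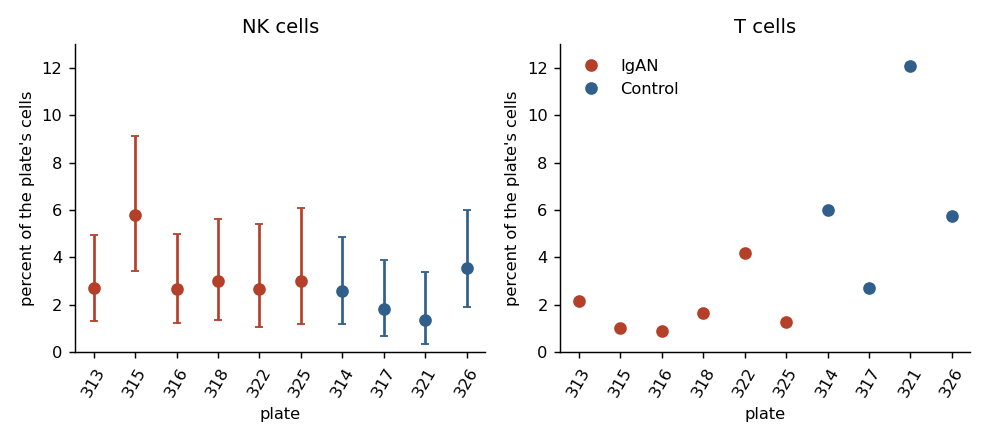
Percent of the cells of each plate that passed the NK gate (left, with exact 95% binomial intervals) and the T cell gate (right), for the 6 IgAN plates (red) and the 4 Control plates (blue). NK shares lie between 1.34 and 5.80%, and T cell shares between 0.888 and 12.1%, with the highest on Control plate 321.

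The members expressed a full set of killing genes. Gzma, which encodes granzyme A, had a read in all 91 members, with a median of 3701 CPM per cell (range 2.83 to 15948). Prf1 (perforin) was read in 93.4% of members with a median of 2396 CPM, and Gzmb (granzyme B) in 89.0% with a median of 1313 CPM. In T cells the summed reads gave 115, 59.2 and 90.7 CPM of these 3 genes, against 3187, 2386 and 1427 CPM in NK cells. Endothelial cells without a Ptprc read, a type that should lack them, still had a read of Gzma in 42.7%, of Prf1 in 14.6% and of Gzmb in 11.6% of cells, but at 6.85, 0.951 and 0.770 CPM. Levels are therefore given beside each share of cells with a read.

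Scaled to 1 kb of exon, the granule genes ran from Gzma at 3168 CPM per kb, through Nkg7, a granule membrane protein of cytotoxic cells, at 2541, to Gzmb at 993 and Prf1 at 923. Serpinb9, an inhibitor that shields the killer cell from granzyme B, was at 1832 CPM in NK cells and 83.2 CPM in T cells, although reads may be shared with its close relatives. The list of granule and death ligand genes had 11 of 18 measured members higher in NK cells and none lower, with a median of 1.51. Fasl, the death ligand, was read in 65.9% of members at 480 CPM, against 54.8 CPM in T cells. Gzmm and Gzmc were nearly unread in NK cells, at 0.0493 and 4.83 CPM.

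Genes of lectin-like receptors made up many of those with the largest excess over T cells. Genes were compared by a size rule, in which the summed CPM plus 1 had to differ by at least 1 on the log2 scale in the same direction in IgAN and in Control. It was met by 670 of 9243 measured genes in the higher direction (7.25%) and 738 in the lower direction (7.98%). Both gates used reads of these same cells, so these counts describe the classes and are no test. Leaving out the gate genes, the largest excess was in Serpinb9b, a serpin gene (603 against 0.965 CPM in T cells, log2 difference 8.26), and Klrb1b, an NKR-P1 receptor gene (502 against 0.644 CPM, 8.26). Klri2, Klrb1f, Klrb1a, Klri1 and Klra9, which also encode lectin-like receptors, followed at 474, 194, 345, 101 and 70.8 CPM in NK cells and at most 2.07 CPM in T cells. Beside the receptors stood Scimp and Lat2, adaptor genes (174 and 260 CPM against 0.286 and 1.11), Cma1, a chymase gene (112 against 0.107), Aoah, a hydrolase of bacterial lipid (138 against 0.465), St5 (130 against 1.07), Cdc20b (90.8 against 0.608) and Ccl3.

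The lower side was led by T cell surface and signalling genes. Cd6 was at 0.246 CPM in NK cells and 619 in T cells (log2 difference -8.96), Il7r, the IL-7 receptor gene, at 0.493 and 703 (-8.88), and Cd5 at 0.690 and 580 (-8.43). The co-receptor genes Cd8b1, Cd8a and Cd4 had 0.837, 0.0985 and 0.788 CPM against 822, 468 and 471. Ctla4 and Themis, a signalling gene of T cells, differed by -8.22 and -7.66 on the log2 scale. Of 12 measured T cell genes that neither gate used, 10 were lower in NK cells, with a median of -5.66, beside 0.02 over all measured genes.

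**Figure D3:**
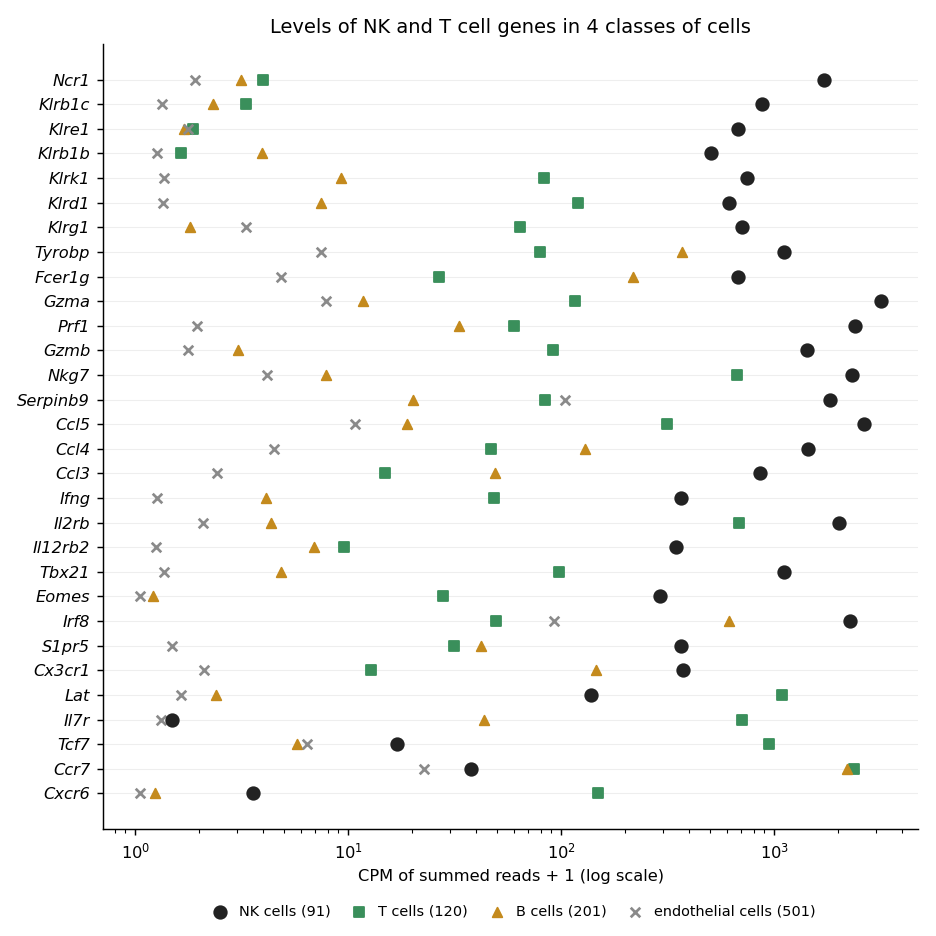
CPM of summed reads plus 1 (log scale) for 30 genes in 91 NK cells (circles), 120 T cells (squares), 201 B cells (triangles) and 501 endothelial cells (crosses). Receptor, granule, chemokine and factor genes lie highest in NK cells, and Lat, Il7r, Tcf7, Ccr7 and Cxcr6 at the bottom lie higher in T cells.

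On the list of activating receptors, without the gate genes, 10 of 12 measured genes were higher in NK than in T cells by the size rule. Slamf6 was the 1 lower gene (30.2 against 470 CPM), and the median was 3.49. Klrb1b, counted among the 10, encodes an inhibitory receptor, so its place on this list is not apt. Per length Klrb1b was at 226 CPM per kb and Klra4 (Ly49D) at 222. The gate genes Ncr1 and Klrb1c (NK1.1) stood at 1112 and 297 CPM per kb, which describes the gate. Klrk1 was read in 83.5% of members, at 743 CPM against 82.5 in T cells. Cd244, which encodes the receptor 2B4, was at 197 against 17.6 CPM, and Tnfrsf9 (4-1BB) at 465 against 29.6 CPM. Cd226 (DNAM-1) did not separate the classes, with 99.6 CPM in NK and 112 in T cells.

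Without the gate gene Klre1, the inhibitory and Ly49 receptor genes had 12 of 17 measured members higher and 1 lower in NK cells, with a median of 3.44. Per length Klrg1 (499 CPM per kb), Klrd1 (480) and Klrc1 (191) were high. Checkpoint receptors of exhausted T cells had lower levels in NK than in T cells. Pdcd1 (PD-1) was at 0.0985 CPM in NK and 184 CPM in T cells. Havcr2 (TIM-3), the gene of this list counted as lower by the size rule, was at 2.46 against 20.4 CPM. Tigit was read in 25.3% of members at 49.0 CPM (107 CPM in T cells), and Lag3 in 4.40% at 11.8 CPM (26.5 CPM). The 23 Klr genes examined all lie on chromosome 6 between 122270596 and 131247362 (GRCm38), a span of 8.98 Mb that holds the natural killer gene complex, and all 19 that were measured and not used by the gate were higher in NK than in T cells by the size rule. Klra5 and Klra2 did not pass the filter on low values, and most of the genes passed it through NK cells alone. Ly49 genes are near copies of each other and the way shared reads were counted is not given, so levels of single members are uncertain.

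The adaptors that couple these receptors to kinases split by partner. Tyrobp (DAP12) and Fcer1g, adaptors of NK and myeloid receptors, were read in 100 and 98.9% of members at 1114 and 675 CPM, against 78.8 and 25.6 CPM in T cells. Syk, the kinase they recruit, was at 104 against 10.5 CPM. Hcst (DAP10), the partner of NKG2D, was level with T cells at 199 and 191 CPM, as was Cd247 (CD3 zeta) at 434 and 628. Lat, the scaffold of T cell receptor signalling, was lower in NK cells at 138 against 1082 CPM. Of 18 adaptor and kinase genes measured, 6 were higher in NK cells (Tyrobp, Fcer1g, Syk, Plcg2, Sh2d1b1 and Samd3).

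Chemokine genes were read in most members. Ccl5 was read in 98.9% of members at 2641 CPM, Ccl4 in 87.9% at 1448 CPM and Ccl3 in 78.0% at 854 CPM, while T cells had 314, 45.8 and 13.9 CPM. Ccl5 and Ccl4 had the highest levels per length of the list, 2751 and 2195 CPM per kb, followed by Ccl3 at 1115 and Xcl1 at 379. Ifng was read in 47.3% of members (36.7 to 58.0), against 10.8% of T cells and 4.19% of endothelial cells, at 365, 47.5 and 0.259 CPM. Il10 had no read in any member, which allows up to 3 reads over the group, and Csf2 was at 0.197 CPM. By the size rule 6 of 9 cytokine and chemokine genes were higher and 1, Ltb, was lower in NK cells (132 against 536 CPM).

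Receptors for the cytokines that sustain NK cells were present. Il2rb, the shared chain for IL-2 and IL-15, was at 2012 CPM in NK and 682 CPM in T cells. Il12rb2 and Il18rap, chains of the IL-12 and IL-18 receptors, were at 345 and 447 CPM against 8.51 and 63.6 CPM. The IL-7 receptor gene was absent from most members, with a read in 9.89% against 62.5% of T cells. In the whole list 4 of 14 genes were higher, the fourth being Il10ra (272 against 71.8 CPM), and 3 were lower, Il7r, Il21r (45.5 against 274 CPM) and Il2ra (5.07 against 25.5 CPM).

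The transcription factors of the NK lineage were read together in many members. Tbx21 (T-bet) was read in 80.2% of members at 1112 CPM, against 96.7 CPM in T cells, and Eomes in 55.0% at 290 CPM, against 27.0 CPM. Both had a read in 43 members, Tbx21 alone in 30, Eomes alone in 7 and neither in 11. Per length Klf2 (475 CPM per kb), Tbx21 (447), Irf8 (320) and Id2 (309) were highest. Irf8 was at 2258 CPM in NK and 48.6 CPM in T cells, while Tcf7 (TCF-1) and Lef1, factors of naive and memory T cells, were lower in NK cells, at 15.9 against 949 and 78.8 against 855 CPM. The list had 4 of 26 genes higher, with Zeb2, a factor of terminal maturation, beside these 3 (200 against 18.7 CPM), and 9 lower.

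Genes of mature, circulating NK cells were the more frequent ones. In mouse, NK cells lose CD27 and gain CD11b (Itgam) and KLRG1 as they mature, and S1pr5 and Cx3cr1 go with egress and circulation. Itgam without Cd27 was read in 35 members, Cd27 without Itgam in 9, both in 6 and neither in 41. S1pr5 was read in 73.6% of members at 365 CPM, Klrg1 in 74.7% at 706 CPM and Cx3cr1 in 52.8% at 371 CPM, against 30.5, 62.7 and 11.7 CPM in T cells. Of 15 measured genes of the mature list, 9 were higher and none lower than in T cells. Of 14 genes of the immature list, 1 was higher and 7 were lower, among them Cd27 at 43.0 against 480 CPM. These states rest on single reads and divide a range, not cell types.

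Homing genes differed in kind. Cx3cr1, S1pr5, Itga2 and Itgam were higher in NK cells, and 4 of the 22 measured genes were lower: Ccr7, which guides cells to lymph nodes (36.9 against 2358 CPM), S1pr1 (142 against 1267), Cxcr3 (12.2 against 196) and Cxcr6 (2.56 against 148). The integrin and selectin ligand genes Itgb2 and Selplg were the highest of the list per length, at 507 and 318 CPM per kb.

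Genes induced within minutes of stimulation were read throughout. Nr4a1, an orphan nuclear receptor gene, was read in every member at 4437 CPM, with 2303 CPM in T cells and 950 CPM in endothelial cells. Of 22 immediate early genes 6 were higher in NK than in T cells and none lower, among them Egr1 (1616 against 380 CPM), Atf3 (549 against 123 CPM) and Dusp2 (1371 against 442 CPM), with a median of 0.96. Of 13 NF-kB feedback genes 4 were higher, Nfkbiz, Nfkbid, Relb and Icam1, with a median of 0.97. All cells had been digested with enzymes, and its part in these levels was not tested.

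Genes of tissue-resident innate lymphocytes differed in level. Of 11 measured genes of the list, 1 was higher and 6 were lower than in T cells, with a median of -2.1. Highest per length were Rgs2, Tmem176b, Ckb and Tmem176a, at 417, 194, 62.7 and 78.65 CPM, against 580, 40.0, 84.7 and 48.0 in T cells. The markers Itga1, Cxcr6 and Il7r were at low levels. Itga1 (CD49a) was at 0.936 CPM, Cxcr6 at 2.56 and Il7r at 0.493 CPM, and any of the 3 had a read in 23 members, but at 20 CPM or more in only 2. After thinning each cell to 50000 reads, 8 members had a read of any of them. Itga1 was read in 15.4% of members, 10.8% of T cells and 20.0% of endothelial cells, and at 20 CPM or more in 1.10, 2.50 and 9.58%. Itga2 (CD49b), which marks conventional NK cells, was at 65.4 CPM, with a read in 20.9% of members and 2.20% of endothelial cells. Il13, Il5, Il22, Il23r and Il17a, products and receptors of other innate lymphoid cells, had no read in any member.

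The next comparison sets NK cells of IgAN beside those of Control. A gene was counted as higher or lower when the log2 difference of summed CPM plus 1 was at least 1 in size and every IgAN plate with at least 5 members lay on one side of every such Control plate. This held for 151 of 8368 measured genes in the higher direction (1.8%) and for 146 in the lower direction (1.74%). Plate 321, with 4 members, entered the sums and not the plate rule. Over all measured genes the median difference was 0.13, and it was 0.02 over 7364 genes without the 23 members that carried endothelial RNA. With those members left out, 90 genes were higher and 195 lower. Plate 325 then kept 2 members and left the plate rule too, so 5 IgAN plates instead of 6 had to lie apart from 3 Control plates. The plate rule is easier to meet in that subset, so a gene that meets it only there may reflect the missing plate. On size alone, with no plate rule, 26.5% of the genes were higher and 14.4% lower. Summed reads cannot tell fewer cells with a transcript from less of it per cell, so shares of members are given as well.

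Of the NK receptor lists, the largest difference that met the rule was in the Ly49 family, inhibitory and activating receptors for MHC class I that each NK cell expresses in its own combination. Promoters of 3 of these genes show how alike they are: Klra7, which encodes Ly49G (chr6:130233273-130233572, minus strand), Klra4, which encodes Ly49D (chr6:130067222-130067521, minus strand), and Klra8, which encodes Ly49H (chr6:130129849-130130148, minus strand), from the same RefSeq table, with the upstream of 2 listed starts for Klra7 and Klra8. Capitals mark the longest run that the 3 share exactly, 14 bases.
Klra7: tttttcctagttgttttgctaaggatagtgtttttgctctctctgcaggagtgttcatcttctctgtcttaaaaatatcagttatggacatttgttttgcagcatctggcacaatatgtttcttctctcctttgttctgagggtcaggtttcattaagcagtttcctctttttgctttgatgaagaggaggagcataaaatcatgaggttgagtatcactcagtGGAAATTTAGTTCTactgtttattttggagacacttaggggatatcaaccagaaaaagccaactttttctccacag
Klra4: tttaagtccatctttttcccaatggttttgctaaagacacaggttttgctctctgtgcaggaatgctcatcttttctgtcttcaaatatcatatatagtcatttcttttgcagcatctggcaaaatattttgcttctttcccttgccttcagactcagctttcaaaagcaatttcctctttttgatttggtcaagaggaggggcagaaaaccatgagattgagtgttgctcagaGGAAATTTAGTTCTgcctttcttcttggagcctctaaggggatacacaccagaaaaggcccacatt
Klra8: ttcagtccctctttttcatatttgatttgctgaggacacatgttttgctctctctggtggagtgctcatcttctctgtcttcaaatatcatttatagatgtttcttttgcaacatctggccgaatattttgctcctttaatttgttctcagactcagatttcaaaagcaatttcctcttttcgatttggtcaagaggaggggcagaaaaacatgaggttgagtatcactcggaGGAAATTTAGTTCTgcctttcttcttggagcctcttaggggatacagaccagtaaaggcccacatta
Klra4 and Klra8 shared a run of 37 bases, Klra7 and Klra8 one of 20, and Klra7 and Klra4 one of 17. The 14 bases, on either strand, were found in the promoters of 4 of 27025 genes (0.0148%), these 3 and Klra6.

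Klra7 reads were found in 10 of 59 IgAN members (16.9%, 8.44 to 29.0) and in 21 of 32 Control members (65.6%, 46.8 to 81.4). On plates 314, 317, 321 and 326 of Control the level was 266, 267, 225 and 222 CPM, and on the IgAN plates it ran from 0 to 33.9 CPM with a median of 9.59. No IgAN plate reached any Control plate. The summed levels were 16.1 and 243 CPM, a log2 difference of -3.83, and under the alternatives the difference lay between -4.38 and -3.36. Without the members that carried endothelial RNA, Klra7 was read in 16.2% of IgAN and 67.7% of Control members (log2 difference -3.36). At a stricter limit of 20 CPM, 7 IgAN and 16 Control members had it. The background was low, since 0.798% of endothelial cells had a read, at 0.0346 CPM. Among the 29 cells past both limits, Klra7 was read in 4 of 13 IgAN and 7 of 16 Control cells, at 176 and 147 CPM, so those cells did not show this difference.

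Klra1 (Ly49A) was lower in IgAN as well, but less firmly. It was read in 40.7% of IgAN and 90.6% of Control members, at 71.9 and 169 CPM (log2 difference -1.22). The Control plates 314, 317, 321 and 326 had 194, 162, 117 and 172 CPM, and the IgAN plates 1.15 to 151 CPM with a median of 55.0, so plate 322 at 151 CPM lay above Control plate 321. Without the members with endothelial RNA the difference was -0.75 and the size rule was not met. Klra4 pointed the same way without meeting the rule, with 205 against 407 CPM and a read in 54.2 against 90.6% of members (log2 difference -0.99, and -0.63 without the members with endothelial RNA).

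Not all Ly49 genes were lower. Klra8 and Klra9 had 69.0 and 84.8 CPM in IgAN and 51.8 and 45.3 CPM in Control, and Klra3 had 11.7 and 22.8 CPM, none past the rule with all members or without those that carried endothelial RNA. Counted per cell, over 10 Ly49 genes at 20 CPM or more, IgAN members had a median of 1 gene and Control members of 4. None of the 10 was found in 26 of 59 IgAN members (44.1%, 31.2 to 57.6) and in 3 of 32 Control members (9.38%, 1.98 to 25.0). Plate medians in Control were 4, 3.5, 4 and 3 genes (plates 314, 317, 321 and 326), and in IgAN 0.5, 0, 2, 1, 5 and 1 (plates 313, 315, 316, 318, 322 and 325), so IgAN plate 322 lay above every Control plate. The medians were again 1 and 4 without the members with endothelial RNA. This count per cell was chosen after the values were seen. T cells and endothelial cells had a median of 0 in both groups.

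Klrc1 (NKG2A), the inhibitory partner of CD94, was read more often in IgAN. It was read in 79.7% of IgAN and 43.8% of Control members, at 453 and 245 CPM, a log2 difference of 0.89 that did not reach the limit. IgAN plates ran from 351 to 577 CPM, Control plates 314, 317 and 326 from 82.0 to 251 CPM, and Control plate 321 with its 4 members was highest at 757 CPM. Without the members with endothelial RNA the difference was 1.30 and the rule was met. In the 10 IgAN and 12 Control members with under 100 CPM of the markers of other cell types the sign turned, to -0.38. Klrd1, which encodes its partner, had 557 and 721 CPM (-0.37). Klrk1 was level at 746 and 738 CPM, with plates overlapping.

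Over the receptor lists the medians stayed near that of all genes. The 17 inhibitory and Ly49 genes had a median of -0.28, with 2 lower by the rule (Klra7 and Klra1) and none higher. The 13 genes of the activating list, Klrb1b among them, had -0.28 with none past the rule. These medians were 0.03 and 0.10 without the members with endothelial RNA. The gate gene Klrb1c was at 680 CPM in IgAN and 1247 in Control, which the gate itself can shape.

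**Figure D4:**
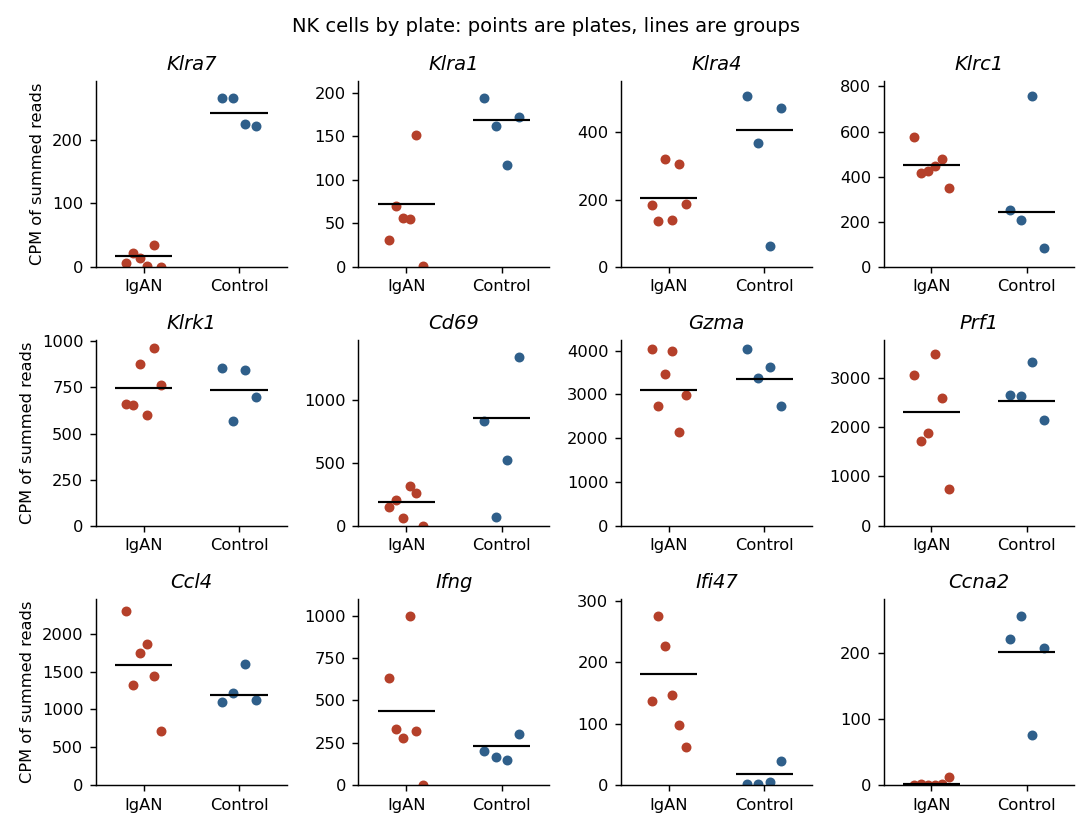
CPM of summed NK cell reads on each plate (points; 6 IgAN plates in red, 4 Control plates in blue) and in each group (black lines) for 12 genes. The points of Klra7 and Ccna2 lie apart between the groups, those of Ifi47 do too, and those of Gzma, Prf1, Klrk1, Ccl4 and Ifng overlap.

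The killing and chemokine genes did not separate the groups. Gzma had 3099 CPM in IgAN and 3346 in Control (log2 difference -0.11), with IgAN plates from 2138 to 4048 (median 3226) and Control plates at 4049, 3386, 3633 and 2743 CPM. Prf1 had 2304 and 2535 CPM (-0.14) and Gzmb 1571 and 1163 CPM (0.43). The 17 measured granule and death ligand genes had a median of -0.11 and none met the rule. Ccl3 had 839 and 882 CPM (-0.07) and Ccl4 1586 and 1196 CPM (0.41). The plates of the groups overlapped for all 5 genes. Leaving out the members with endothelial RNA gave 0.09 for Gzma, 0.09 for Prf1, 0.61 for Gzmb, 0.14 for Ccl3, 0.71 for Ccl4 and 0.19 for the median of the granule list, again with no gene of that list past the rule. In that subset the Ccl4 plates with at least 5 members did not overlap, at a difference under the size limit. They had 1486 to 2299 CPM in IgAN and 997 to 1213 in Control. Control plate 321, with 4 members, had 1607 CPM and lay within the IgAN range. IgAN plate 325 kept 2 members and was not among these plates. With all its members it had 712 CPM, below every Control plate. With 1 sample a group, such values do not show that the groups are alike.

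Ifng was at 440 CPM in IgAN and 227 CPM in Control (log2 difference 0.95). IgAN plates 313, 315, 316, 318, 322 and 325 had 633, 331, 278, 997, 320 and 0 CPM, and Control plates 314, 317, 321 and 326 had 199, 167, 149 and 300 CPM. Of 6 IgAN plates, 4 lay above all Control plates and plate 325 lay below them. The shares of members with a read were 49.2 and 43.8%. The difference was 1.34 without the members with endothelial RNA, with plates that overlapped. Plate 325, with 7 members, of which 5 carried endothelial RNA, was also the lowest IgAN plate for Ccl3 (1.15 CPM), Klrg1 (0 CPM) and Tbx21 (24.2 CPM), while its Gzma stood at 2995 CPM.

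Cd69, an early activation gene that also marks retained lymphocytes, was picked out after its values were seen. It was read in 20 of 59 IgAN members (33.9%, 22.1 to 47.4) and in 25 of 32 Control members (78.1%, 60.0 to 90.7), at 190 and 856 CPM (log2 difference -2.17). By plate the shares were 30.0, 29.4, 22.2, 33.3, 85.7 and 14.3% in IgAN (313 to 325) and 88.9, 33.3, 75.0 and 92.3% in Control (314 to 326). IgAN plate 322 and Control plate 317 broke the separation of the shares. In CPM, Control plate 317 at 67.1 lay within the IgAN plates (1.15 to 314), so the rule was not met. T cells had a Cd69 read in 87.9% of IgAN and 80.5% of Control cells, and endothelial cells in 12.0 and 30.7%. The shares were 32.4 and 80.6% without the members with endothelial RNA.

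Several interferon-stimulated genes were higher in IgAN members, and here endothelial RNA moved with the result. Of 25 measured genes of the list, 16 were above 0, beside 55.4% of all measured genes, 4 met the rule (Rsad2, Ifi44, Ifi47 and Rtp4) and none was lower, with a median of 1.28. Ifi47, an interferon-induced GTPase gene, was at 180 and 17.1 CPM (3.32), with IgAN plates from 61.1 to 275 and Control plates from 0.771 to 39.8 CPM, the highest on plate 326. The groups did not overlap by plate. Rtp4 was at 40.5 and 1.81 CPM (3.88), Ifi44 at 39.3 and 3.62 (3.12) and Rsad2 (viperin) at 20.2 and 0.557 (3.77). Endothelial cells held 76.5, 169, 310 and 178 CPM of these 4 genes.

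In the 68 members with little endothelial RNA the interferon genes had a median difference of 0.36, and 13 of 21 were above 0. Ifi47 (3.28) and Rtp4 (2.56) still met the rule, and Ifi44 (2.00) and Rsad2 (1.74) did not. In that subset Ifi47 had 175 CPM in IgAN and 17.1 in Control. In the 10 IgAN and 12 Control members with under 100 CPM of other cell types' markers the list median was -0.32, while the Ifi47 difference was 6.89. In T cells the list median was 0.03, and the Ifi47 difference was -0.39. The difference of Ifi47 was as large without the endothelial wells as with them, and that of the list median was not.

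RNA of other kidney cells differed between the groups in NK wells. The 12 endothelial genes had a median difference of 3.42, all 12 above 0, at 3985 CPM summed in IgAN and 484 in Control against 19696 in endothelial cells, and 0.49 without the 23 members. The 7 proximal tubule genes had 3.75, and -0.22 without them. The 8 podocyte genes went the other way at -3.22, all below 0, with 113 CPM in IgAN and 587 in Control, or 190 without the Control cell on plate 317. Nphs1 and Ptpro, podocyte genes, met the rule in the lower direction, and Pecam1, an endothelial gene, and Acta2, a smooth muscle gene, in the higher direction. Cd79b, a B cell gene, and Trbc2, a T cell receptor gene, were lower too, at -4.20 and -1.16. Macrophage and dendritic genes summed to 893 and 879 CPM. The part of this RNA in the other gene differences was not tested beyond leaving out the 23 members.

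**Figure D5:**
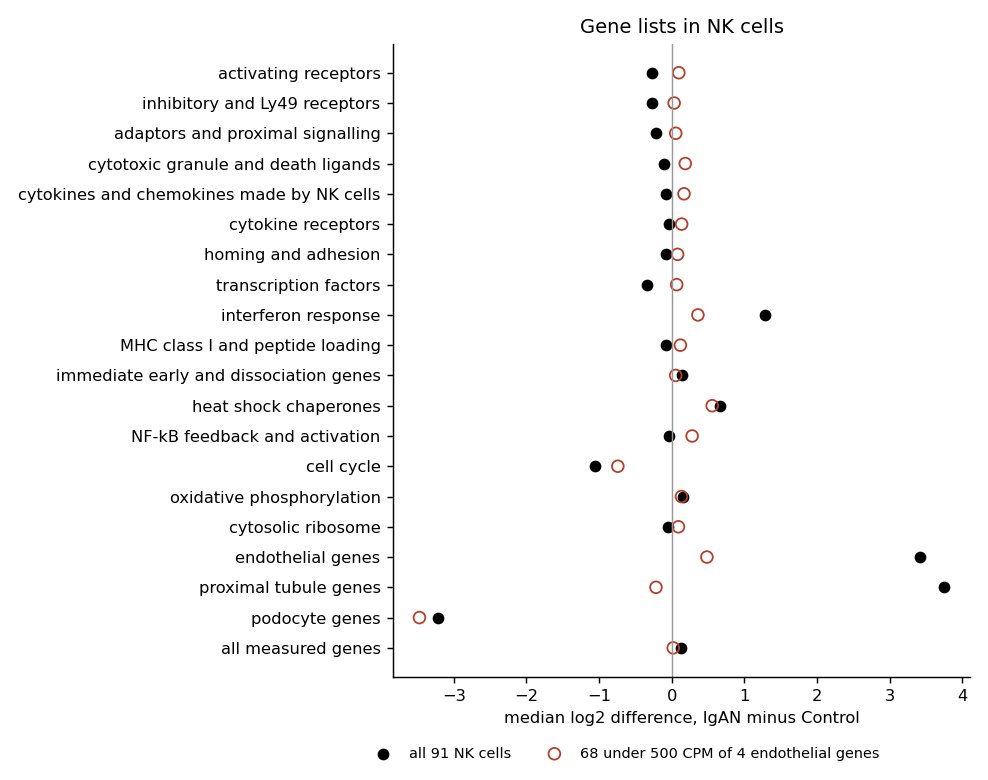
Median log2 difference (IgAN minus Control, x) of the measured genes of each list in NK cells, for all 91 cells (filled circles) and for the 68 with under 500 CPM of 4 endothelial genes (open circles). Endothelial genes fall from 3.42 to 0.49, proximal tubule genes from 3.75 to -0.22 and interferon genes from 1.28 to 0.36, while podocyte genes go from -3.22 to -3.47.

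Unnamed gene models rose most by the rule, led by Gm13340 at 1025 CPM in IgAN and 2.23 in Control (log2 difference 8.31). Gm13339, Gm4076 and Gm13341 followed at 228.5, 112.5 and 294.5 against 0, 0 and 1.67 CPM. All of these were read in 94.9 to 100% of IgAN members, and the cause was not tested. By plate Gm13340 had 774 to 1452 CPM in IgAN and at most 7.71 on Control plates 314, 317 and 326. Leaving out such models and markers of other cell types, Cpt2, a mitochondrial enzyme of fatty acid oxidation, led (80.2 against 0.418 CPM). After it came Zkscan6, Il15, Wdr12, a ribosome assembly gene, and Cnot1, the scaffold of the mRNA deadenylase complex (82.5 against 0.696). Zfp52, Banp, Taf7, Lrrc61, Comtd1, Tomm40l and Mknk1 followed. Several rested on 1 to 3 Control reads, so their ratio is given with its counting interval. Il15, the gene of the cytokine that keeps NK cells alive, had 883 reads in IgAN and 2 in Control, a ratio of 242 (66.7 to 1997). Its reads lay in 27.1% of IgAN and 6.25% of Control members, and 9 IgAN members had 20 CPM or more, while 1 IgAN member held 50.6% of the reads. For Wdr12 1 member held 68.9% of the IgAN reads, and for Cpt2 52.0%. The median IgAN plate had 51.9 CPM of Il15 (range 1.03 to 169), and endothelial cells had 18.2 CPM. Without the members with endothelial RNA, Cpt2 and Wdr12 met the rule, while Il15, Zkscan6, Cnot1, Zfp52, Banp and Taf7 kept differences of 5.01 to 6.27 without meeting it.

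The largest decrease was in an unnamed gene model, BC018473, at 0.0762 CPM in IgAN and 289 in Control (log2 difference -8.07). With the same exclusions, the decreases were led by Ccna2, the cyclin A2 gene of dividing cells. Ccna2 was at 1.45 CPM in IgAN and 203 in Control (log2 difference -6.38). Control plates 314, 317, 321 and 326 had 222, 257, 76.6 and 208 CPM, and IgAN plates 0 to 11.5 CPM. It was read in 25.0% of Control and 11.9% of IgAN members, yet 3 Control members held 90% of the Control reads. Top2a, a topoisomerase gene of cycling cells, was at 32.1 and 208 CPM (-2.66). Of 12 measured cell cycle genes 11 were below 0, beside 44.6% of all measured genes, with a median of -1.06 and 2 met the rule, and without the members with endothelial RNA the median was -0.74 and Ccna2 alone met it. Counted per cell the direction was not the same: at least 3 of 20 cell cycle genes were at 20 CPM or more in 38 of 59 IgAN members (64.4%) and 15 of 32 Control members (46.9%), and at least 5 in 18.6 and 28.1%. With so few cells carrying the reads, the number of dividing cells in either group is not known.

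The other genes with large decreases included Rab3b, a vesicle GTPase gene (0.686 against 74.5 CPM), Clic3 (0.990 against 48.9 CPM), Itpr3, an inositol trisphosphate receptor gene (0.457 against 47.2 CPM), Cd177, Zdhhc8, Otub2, Fbxw17, Pwwp2b, Tfb1m and Zfp729b. Clic3 and Rab3b were each read in 71.9% of Control members, against 16.9 and 10.2% in IgAN. For Rab3b 1 Control member held 89.5% of the reads, while for Clic3 the highest member held 52.7%. One Control member also held 84.9% of the Zdhhc8 reads, 73.2% for Otub2, 68.2% for Zfp729b, 60.2% for Itpr3 and 58.3% for Fbxw17. Fbxw17 no longer met the rule without the members with endothelial RNA, and the other 9 did. That subset keeps the plate 317 member with podocyte RNA. Among Control plates 314, 317 and 326, Rab3b, Clic3, Itpr3 and Zdhhc8 were highest on plate 317, at 375, 168, 224 and 262 CPM. On plates 314 and 326 they had at most 8.31, 38.8, 20 and 26.5 CPM. Cd177, Otub2, Fbxw17, Pwwp2b, Tfb1m and Zfp729b were highest on plate 314 or 326. Whether the podocyte member held the plate 317 reads was not tested. Cd177 had no read in IgAN and 320 reads in Control, which puts it at least 195-fold lower against a floor of 3 reads over the group. Of the 320 reads, 47.2% lay in 1 Control member, and 3 of the 32 Control members held 90%. Control plate 317 had 2.31 CPM of it.

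Other NK lists had medians from -0.34 to 0.48. The 20 transcription factor genes had -0.34 and the 18 adaptor and kinase genes -0.21. Of these, 14 and 17 were below 0 and none was past the rule. Maturation genes had medians of -0.06 (mature, 15 genes) and -0.34 (immature, 11 genes), with no gene past the rule. Tbx21 and Eomes differed by -0.39 and -0.37. The 6 measured genes of the tissue-resident list had a median of 0.48, with 4 above 0 and none past the rule. Among homing genes S1pr1, the receptor for exit into blood, was at 190 and 55.2 CPM with all members and turned from 1.77 to -1.24 without the members with endothelial RNA, where it met the rule as lower, and endothelial cells held 1105 CPM of it. Among cytokine receptor genes Tgfbr1 met the rule, at 14.9 against 0.418 CPM, on 196 and 3 reads, a ratio of 35.7 (12.0 to 175). Heat shock chaperone genes stood further from the background, with a median of 0.67, 11 of 12 above 0, none past the rule, beside 0.54 in T cells and 0.56 without the members with endothelial RNA.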

How the data were processed

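The authors deposited counts: whole numbers of reads per gene name and cell for 46517 names in 3143 cells, not normalized. Per the submitters' processing notes, the tools were TopHat2 2.1.1, SAMtools 0.1.18, and featureCounts with Subread 1.4.6-p5, on the build GRCm38 (mm10). Not given in the sources used here are the annotation, the strand setting and how duplicate or shared reads were treated. Cells held 50365 to 1135415 reads. Smart-seq2 reads carry no molecular identifiers and are not independent molecules, so the 95% intervals (exact binomial for shares) and the floor of 3 reads cover counting error only.

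Here CPM was computed per cell for the gates, and from reads summed over cells for levels. B cells had at least 100 CPM of Cd79a and Cd79b, and endothelial cells at least 400 CPM of Pecam1, Cdh5, Kdr and Emcn with no Ptprc read, both outside the NK and T cell gates. Log2 differences add 1 CPM. A gene was measured with at least 10 CPM and a read in at least 20% of the cells of 1 class or group. Exon lengths and positions are from GENCODE vM21 on GRCm38, matched by name for 42052 names. On simulated data the size rule was checked, and genes with no difference can meet it.

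Named genes were the gate genes and markers, the 14 largest and 8 smallest differences against T cells, the 12 largest in each direction between groups, the 4 most abundant and all called genes of a described list, and the 10 most variable, without unnamed gene models or markers of endothelial, epithelial, B, macrophage and dendritic cells. Some genes this rule names are not described. The members, lists and rules were chosen with earlier results of these data known. Alternatives covered the gates, filters, scaling, pseudocount, depth, plate rule and each plate left out. Python 3.11.15, numpy 2.4.6, pandas 2.3.3, scipy 1.17.1 and matplotlib 3.10.9 were used.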

Additional observations from a re-analysis of the deposited data

Results flagged for a closer look

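The NK share on IgAN plate 315, 5.80% of its cells, stood apart from the other 5 IgAN plates (2.65 to 2.99%): the gap to its nearest neighbour took most of the range of the group. It was the 1 value to stand apart among 18 tested, where chance picks out about 1 group in 20. The same plate held 11 of the 23 NK cells with at least 500 CPM of endothelial genes, and its members had a median of 283306 reads and 5442 genes.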

How the results depend on the processing

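Of the 130 alternative values of the shares and gene counts, 103 stayed within their limits (1.5 times for a count, the interval for a share) and 27 moved. Without members that held 100 CPM of another type's markers the NK share was 0.556% in IgAN and 0.892% in Control, on 10 and 12 cells, too few per plate for gene counts between groups. Without members that held 500 CPM of endothelial genes, an alternative chosen after the data were seen, the IgAN share was 2.06%, and 90 genes were higher in IgAN, 50 of them shared with the 151.

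Counts of genes higher and lower in IgAN depended most on the plate rule: 2217 and 1207 without it, 435 and 368 with plates of at least 8 members only, and 59 lower with plates of at least 3. Leaving out 1 plate at a time gave 148 to 337 genes higher and 160 to 339 lower, most without Control plate 314, since fewer plates then had to lie apart. Plates 313, 314, 316, 317 and 326 each moved the count of higher genes by over 1.5 times (227, 337, 247, 275 and 336 without them). An NK limit of 50 CPM gave 94 higher and 53 lower, a filter of 50 CPM gave 65 higher, no low filter 225 lower, and a log2 limit of 2 gave 88 lower. Against T cells, no low filter gave 1023 higher and 1352 lower, a log2 limit of 2 gave 251 and 256, and a filter of 50 CPM gave 484 lower.

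Of 782 alternative values of named genes 44 moved and 1 turned its sign, Klrc1 at -0.38 without members that held 100 CPM of another type's markers. S1pr1, not among these genes, turned to -1.24 without members that held endothelial RNA. Of 460 for list medians 2 moved beyond the spread over plates; the interferon median of 1.28 was -0.32 in the first of these subsets, and of 16 for maturation states 7 moved. The cause of these shifts was not tested except where stated. No paired analysis was possible because the labels give no replicate numbers or animals. With 59 and 32 members, shares are known only to within about the printed intervals, and genes read in few members rest on 1 to 5 cells.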

Other observations

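The genes that varied most from member to member, among those read in 20 to 80% of members, were Serpinb9b, Arsb, Nfkbid, Hsd11b1, Stat4, Rgs1, Klri2, Gem, Ifng and Adamts14. Their SD of log2 (CPM + 1) lay between 4.54 and 4.79, and each was at 0 in some members. Arsb, a lysosomal sulfatase gene, was read in 62.6% of members at 595 CPM, Hsd11b1, which regenerates active glucocorticoid, in 59.3% at 418 CPM, and Adamts14, a protease gene, in 53.8% at 373 CPM.

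Across the 91 members, Ccl3 and Ccl4 had the highest rank correlation of 17 pairs examined (Spearman 0.50; 0.60 within IgAN and 0.34 within Control). Both had a read in 67 members. Gzmb and Prf1 had 0.38, Klra4 and Klra8 0.38, Gzma and Klrg1 0.36 and Ifng and Ccl3 0.35. Members share plates and each pair shares the depth of its cell, so these values describe the cells and are not tested. CPM of Ccl3 and Ccl4 had rank correlations of 0.07 and -0.05 with the reads per member.

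The mitochondrial share of reads had a median of 1.53% in IgAN and 1.38% in Control members. The 29 cells past both the NK and the CD3 limits had Gzma at 2916 CPM, Prf1 at 2149 CPM and Ncr1 at 1741 CPM, close to the members' summed levels of 3187, 2386 and 1712 CPM.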
